A study of Mus musculus with 4 samples.

Results

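The genes examined were the 10 posterior members of the HoxA and HoxD clusters, Hoxa9, Hoxa10, Hoxa11 and Hoxa13 on chromosome 6 and Hoxd8, Hoxd9, Hoxd10, Hoxd11, Hoxd12 and Hoxd13 on chromosome 2. They were chosen by symbol among 22691 listed genes, of which 20606 had a value in both genotypes, 19836 of them autosomal, and all 10 were among these. The choice was made with earlier results of the same values known, so the values of these genes are given as a description. H3K27me3, trimethylation of histone H3 at lysine 27, was measured by chromatin immunoprecipitation and sequencing (ChIP-seq) in fibroblasts prepared from female C57BL6/J fetuses at E13.5 of gestation. One genotype was Smchd1 +/+ (WT) and the other Smchd1 MD1/MD1 (MD1), which the series' design calls deficient for SmcHD1, a noncanonical SMC-family protein of silent chromatin. Each genotype had 1 ChIP library, made with the mouse monoclonal antibody CMA323, and 1 input library without antibody. Values are log2 enrichments over the gene's listed interval, 1 per gene and genotype, and the difference is MD1 minus WT, so that -1 is 2-fold lower enrichment in MD1. With 1 library of each kind there is no replicate error and no test between the genotypes, and the labels do not say whether the fibroblasts of a genotype came from 1 fetus or several. ChIP values do not show whether Smchd1 was functional, so the genotype labels were not checked.

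Hox genes encode homeodomain transcription factors that give positional identity along the body axis and the limbs, and they lie in clusters in the order in which they are used from front to back. Paralog groups 9 to 13 descend from an Abdominal-B-like ancestor. They pattern the trunk's rear, the urogenital tract and, for HoxA and HoxD, the limb from shoulder to digits. Polycomb repressive complex 2 places H3K27me3 over the silent part of a cluster, often around CpG-rich start sites, and fibroblasts in culture retain a Hox pattern that reflects where in the body they came from. Embryonic fibroblast cultures usually hold cells of several body regions, and a value per gene averages over them. A lower share of cells with the mark and less mark per cell cannot be told apart here.

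The stretches before the RefSeq start sites of 5 of these genes are shown because they span the range of the differences described below: Hoxd13 with the lowest difference, Hoxd9 and Hoxd8 on either side of the change of sign in HoxD, Hoxa13 at the posterior end of HoxA, and Hoxa9 with the highest difference. Each runs 5′ to 3′ on the gene's strand for the 250 bases before the start in GRCm38.p6, and capitals mark the dinucleotide CG. Hoxd13 is from chr2:74667975-74668224 (plus strand), Hoxd9 from chr2:74697513-74697762 (plus), Hoxd8 from chr2:74704365-74704614 (plus), Hoxa13 from chr6:52260881-52261130 (minus) and Hoxa9 from chr6:52227371-52227620 (minus).
Hoxd13: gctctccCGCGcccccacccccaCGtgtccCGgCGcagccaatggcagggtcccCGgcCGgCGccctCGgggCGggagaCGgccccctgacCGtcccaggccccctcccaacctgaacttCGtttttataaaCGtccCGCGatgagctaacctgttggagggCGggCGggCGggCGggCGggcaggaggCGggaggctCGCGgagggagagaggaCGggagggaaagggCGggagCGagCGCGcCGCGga
Hoxd9: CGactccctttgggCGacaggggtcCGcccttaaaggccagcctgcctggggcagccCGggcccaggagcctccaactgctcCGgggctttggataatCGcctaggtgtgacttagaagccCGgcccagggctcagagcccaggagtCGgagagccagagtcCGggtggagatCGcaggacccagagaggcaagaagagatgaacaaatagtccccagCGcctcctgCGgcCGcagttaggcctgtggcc
Hoxd8: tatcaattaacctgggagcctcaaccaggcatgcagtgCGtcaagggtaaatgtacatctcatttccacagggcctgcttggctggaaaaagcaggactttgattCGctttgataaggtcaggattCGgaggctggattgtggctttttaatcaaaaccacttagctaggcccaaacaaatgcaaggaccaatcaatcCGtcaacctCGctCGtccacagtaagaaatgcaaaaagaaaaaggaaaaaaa
Hoxa13: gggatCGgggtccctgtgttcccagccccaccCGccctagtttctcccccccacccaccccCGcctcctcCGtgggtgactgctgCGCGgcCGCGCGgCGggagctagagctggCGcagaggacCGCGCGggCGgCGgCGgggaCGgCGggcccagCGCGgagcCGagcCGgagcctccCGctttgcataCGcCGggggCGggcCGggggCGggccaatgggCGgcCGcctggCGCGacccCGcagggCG
Hoxa9: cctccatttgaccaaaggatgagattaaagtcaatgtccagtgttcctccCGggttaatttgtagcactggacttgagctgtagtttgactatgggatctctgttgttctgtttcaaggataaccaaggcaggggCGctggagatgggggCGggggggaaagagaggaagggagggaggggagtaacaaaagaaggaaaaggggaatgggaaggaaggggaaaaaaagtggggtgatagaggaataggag
The Hoxa13 and Hoxd13 stretches held 35 and 31 CG, more than 97.0% and 94.8% of the 32851 mouse windows of this length, whose median was 6. The Hoxd9 stretch held 13, the Hoxd8 stretch 6 and the Hoxa9 stretch 3. Among the other members, Hoxd10 had 20 CG, Hoxa11 had 13 and Hoxd12 had 10. Hoxa10 and Hoxd11 each have a pair of listed starts, with 7 and 20 CG for Hoxa10 and 2 and 20 for Hoxd11. The letters TATAAA, searched on both strands, were found in 2 of the 12 member windows, those of Hoxd13 and of 1 start of Hoxa10, and in 12.4% of all windows. At least 1 CG was found in 92.1% of all windows.

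All 10 posterior genes carried H3K27me3 above the autosomal median in both genotypes, and 8 of the 10 had a lower value in MD1 than in WT. Their values ran from 0.49 to 2.46 in WT, percentiles 75.0 to 98.8 of autosomal genes, and from 0.68 to 1.85 in MD1, percentiles 78.2 to 94.5. The autosomal medians were -0.78 in WT and -0.90 in MD1. The median of the 10 went from 1.93 to 1.29, and their median difference was -0.60 (quartiles -0.78 and -0.21). Of all autosomal genes, 69.0% had a difference below 0 and 31.0% one above 0, with a median of -0.27. Among the 4727 autosomal genes whose WT value lay within the range of the 10, 44.3% had a difference below 0 and 55.7% one above 0, and the median difference was 0.038 (quartiles -0.19 and 0.25). Measured against the autosomal median of -0.27, 7 of the 10 were lower, with Hoxa10 turning from -0.12 to 0.15; the share was 50.0% of autosomal genes by construction and 18.0% of those within the WT range. When MD1 values were quantile-normalized to WT, 8 of the 10 were lower, Hoxa9 and Hoxd8 being the exceptions, against 51.2% and 54.5%. The 10 genes lie close together, within 39.6 kb in HoxD and 37.8 kb in HoxA. Neighbours may share a stretch of the mark, so counts among the 10, here and below, are not counts of independent genes.

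At the limit of 2-fold, 1 of the 10 genes, Hoxd13, was lower in MD1 and none was higher. The same limit was passed downwards by 20.4% of autosomal genes and by 2.20% of those within the WT range of the 10, and upwards by 1.61% and 0.952%. At 1.5-fold, 5 of the 10 were lower (Hoxd13, Hoxd10, Hoxd9, Hoxa11 and Hoxd11) and none was higher, against 34.4% lower and 5.05% higher among autosomal genes and 6.79% lower and 5.52% higher within the WT range.

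**Figure D1:**
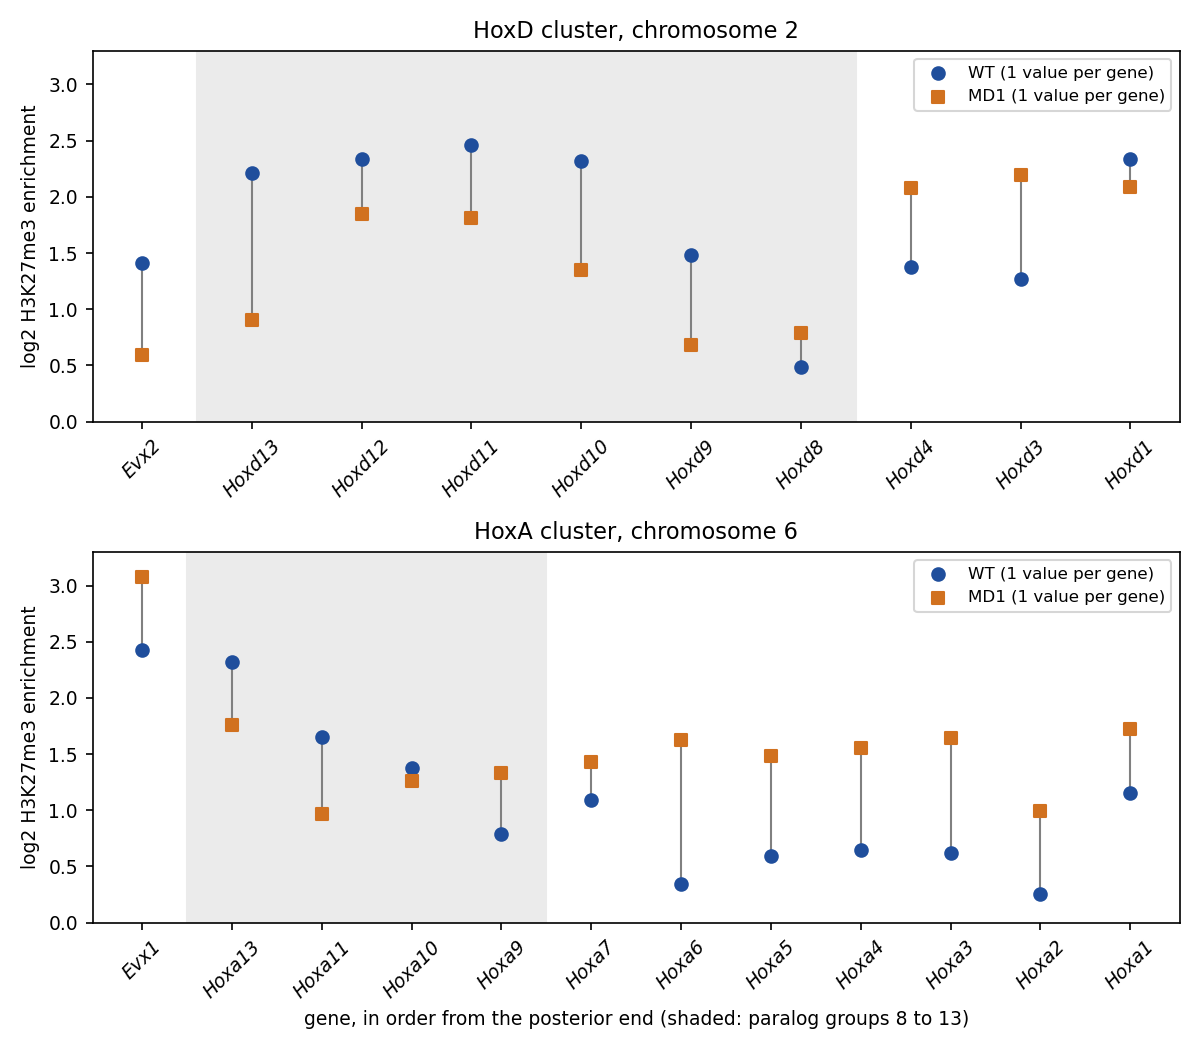
Log2 H3K27me3 enrichment of each gene in WT (circles) and MD1 (squares), 1 value per gene and genotype, in gene order from the posterior end of the HoxD (top) and HoxA (bottom) clusters. Shading marks the 10 posterior genes. MD1 lies under WT from Hoxd13 to Hoxd9 and from Hoxa13 to Hoxa10, and above it at Hoxd8 and Hoxa9.

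The HoxD group began with Hoxd13 (chromosome 2, 74506367 to 74509656 in mm9), a regulator of digit and genital development. Its enrichment was 2.21 in WT cells and 0.91 in MD1 cells, so that the difference was -1.30, or 2.47-fold. Within autosomal genes it moved from percentile 97.7 to percentile 82.3. Its difference was the lowest of the 10 and lay at percentile 1.04 of autosomal genes within the WT range. Written as a ratio of whole numbers in lowest terms, its enrichment before scaling was 202 to 45 in WT and 117 to 61 in MD1.

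Hoxd12 and Hoxd11, which act with Hoxd13 in the distal limb, kept the highest MD1 values of the group. Hoxd12 (74513070 to 74515762) went from 2.34 to 1.85, which is -0.49 as a difference. Hoxd11 (74517615 to 74525073), also needed in the forearm and kidney, stood at 2.46 in WT, the highest WT value of the 10, and 1.81 in MD1, with -0.65 between them.

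Toward the middle of the cluster the differences were again larger. Hoxd10 (74529948 to 74533163), which in the mouse contributes to hindlimb motor neuron patterning, stood at 2.32 in WT and 1.35 in MD1. The difference of -0.97, or 1.96-fold, fell just inside the limit. Hoxd9 (74535820 to 74538265), active in the proximal forelimb, went from 1.49 to 0.68, a difference of -0.81, and its MD1 value was the lowest of the 10.

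Hoxd8 (74542672 to 74545989), the most anterior gene of the group, did not share the direction of the genes from Hoxd13 to Hoxd9. It had the lowest WT value of the 10, 0.49, with 0.79 in MD1, so that the difference was 0.30. The intervals of Hoxd9 and Hoxd8 are 4.41 kb apart, and the step in the difference between them, 1.11, was the largest between neighbours among the 6 HoxD genes. Over these 6 genes the median went from 2.26 to 1.13 and the median difference was -0.73, or -0.46 against the autosomal median.

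In HoxA too, the differences were negative at the posterior end and positive at the most anterior of the 4 genes, and none reached 2-fold. Hoxa13 (chromosome 6, 52208852 to 52210874), the partner of Hoxd13 in the digits and in the hindgut and genital region, went from 2.32 to 1.76, and the difference was -0.56. Hoxa11 (52192104 to 52195809), required for the forearm, kidney and uterus, went from 1.65 to 0.97, a difference of -0.68 and the lowest of the 4 HoxA genes. The interval of Hoxa11 shares 568 bp with that of Hoxa11os, its antisense noncoding RNA gene, which went from 1.49 to 1.06, and since ChIP reads carry no strand these genes are not independent.

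The other HoxA genes differed less or in the opposite direction. Hoxa10 (52181196 to 52190853), a regulator of uterine and lumbar development, went from 1.38 to 1.26, and the difference of -0.12 changed sign against the autosomal median. Hoxa9 (52173096 to 52177369), known also for its part in blood stem cells and leukaemia, went from 0.79 to 1.33, and its difference of 0.54 was the highest of the 10. The median of the 4 genes went from 1.51 to 1.29, with a median difference of -0.34, or -0.067 against the autosomal median.

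Paralogs of the clusters were set side by side. In WT the HoxD paralog was above the HoxA paralog by 0.69 in group 9, 0.94 in group 10 and 0.81 in group 11, and below it by a WT difference, HoxD minus HoxA, of -0.11 in group 13. The MD1 minus WT difference was lower in HoxD than in HoxA by -1.34 for group 9, -0.85 for group 10 and -0.74 for group 13. For group 11 it was nearly the same in both clusters, with a HoxD minus HoxA value of 0.035.

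The posterior genes differed from the anterior genes of their own clusters in opposite ways in the genotypes. In WT the posterior median exceeded the anterior median by 0.90 in HoxA (1.51 over 4 genes against 0.62 over 7) and by 0.89 in HoxD (2.26 over 6 genes against 1.38 over 3). In MD1 the posterior minus anterior value was -0.26 in HoxA and -0.96 in HoxD. In HoxC it went from 1.47 to 0.58 and in HoxB from 0.56 to 0.46, so it stayed positive there. The posterior median difference minus the anterior one was -1.24 in HoxA, -1.43 in HoxD, -1.03 in HoxC and 0.038 in HoxB. All 7 anterior HoxA genes had a positive difference, from 0.34 at Hoxa7 to 1.28 at Hoxa6, and so did Hoxd4 (0.70) and Hoxd3 (0.93), whereas Hoxd1 at the far anterior end went from 2.34 to 2.09, a difference of -0.24. Measured against the autosomal median, the difference of Hoxd1 was 0.027. The interval of Hoxa3 overlaps those of Hoxa4, Hoxa5 and Hoxa6. That of Hoxd3 overlaps that of Hoxd4, so Hoxa3 and Hoxd3 share reads with these genes. A constant factor between libraries cancels in the shift between posterior and anterior parts, since both are measured in the same libraries. A relation between libraries that changes with level does not cancel. The slope of MD1 on WT over autosomal genes was 1.25, and the posterior and anterior genes differ in WT level. The part of such a relation in the shift was not tested.

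The values of the 10 genes lay closer together in MD1, whereas autosomal values as a whole lay further apart, but this was not particular to them. The range of the 10 was 1.97 in WT and 1.17 in MD1, and their SD across genes was 0.70 and 0.43. The SD also went from 1.11 to 0.35 over the posterior HoxB and HoxC genes, from 0.62 to 0.36 over the anterior HoxA and HoxD genes and from 0.82 to 0.48 over the anterior HoxB and HoxC genes. Within the 10, the 5 genes from Hoxd9 to Hoxd13 lay further apart in MD1, with an SD of 0.39 in WT and 0.53 in MD1. Over all autosomal genes the SD was 1.57 in WT and 2.08 in MD1, and the slope of MD1 on WT was 1.25. Measurement scatter in WT pulls genes picked as high in WT toward negative differences, since WT is subtracted; its part in the values of the 10 was not tested. The 1343 autosomal genes with WT values between those of Hoxd9 and Hoxd11, the lowest and highest among Hoxd9 to Hoxd13, had a median difference of 0.067 (quartiles -0.16 and 0.27), and 41.0% of them were below 0. The 5 genes from Hoxd9 to Hoxd13 ran from -1.30 to -0.49.

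**Figure D2:**
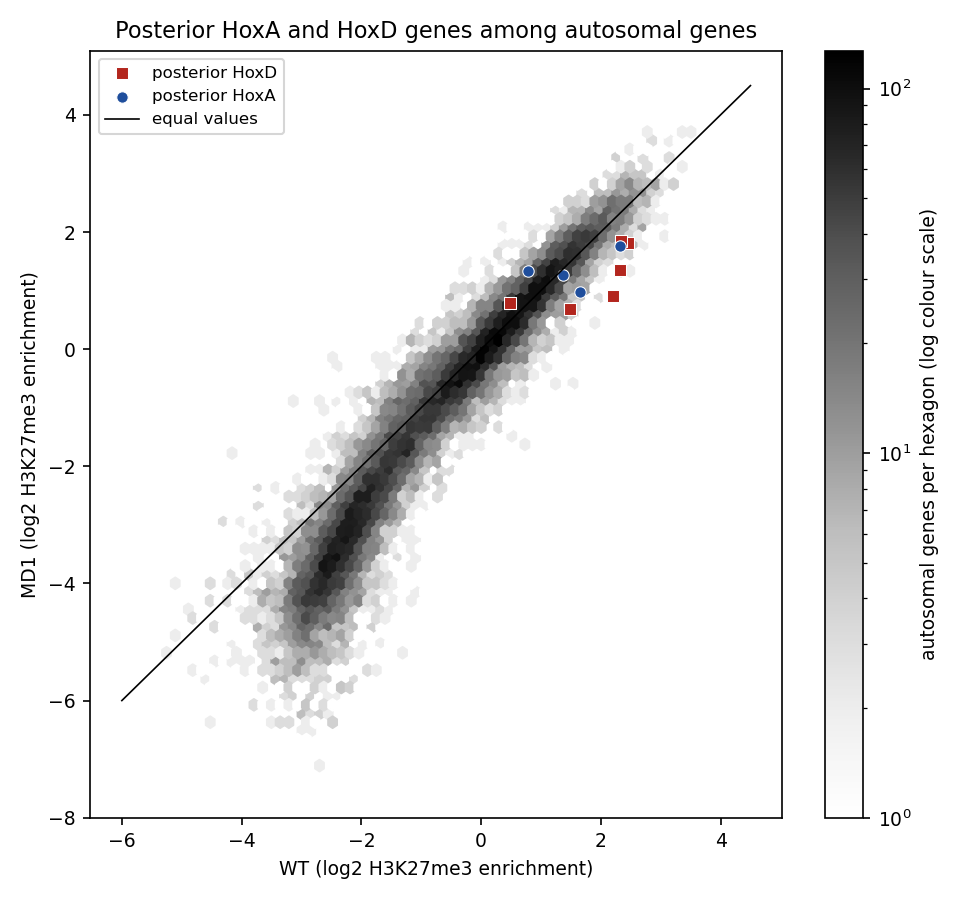
MD1 against WT log2 H3K27me3 enrichment for 19836 autosomal genes, with shading for the number of genes per hexagon on a log colour scale, and with the posterior HoxD (squares) and HoxA (circles) genes over them. The line marks equal values. Hoxd13, at 2.21 in WT and 0.91 in MD1, lies at the lower edge of the genes with similar WT values, and Hoxa9 and Hoxd8 lie above the line.

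At 8 of 9 posterior HoxB and HoxC genes, which carry the same paralog groups, values were higher in MD1, beside 31.0% of autosomal genes. Of 9 such genes, 5 passed the 2-fold limit upwards and none downwards, beside 1.61% and 20.4% of autosomal genes, and the median difference was 1.31, against -0.60 for the 10 HoxA and HoxD genes. Hoxb8 went from -0.29 to 1.71, Hoxc8 from 0.37 to 2.11, Hoxc9 from 0.78 to 2.49 and Hoxb9 from 1.26 to 2.60. The difference of Hoxc13 was 0.10 and that of Hoxb13 was -0.37, the one negative value of the 9. Level-matched differences are taken against autosomal genes of similar mean level and length, as defined below. They lay within 1 SD of those genes at Hoxc11 (0.33, SD 0.52), Hoxc12 (0.21, SD 0.55), Hoxc13 (-0.020, SD 0.30) and Hoxb13 (-0.46, SD 0.55). The 5 genes past the 2-fold limit lay beyond 1 SD. With the mark at 3.22 in WT and 2.85 in MD1, Hoxb13 was still more enriched than any of the 10. The 10 anterior HoxB and HoxC genes all had positive differences, with a median of 1.47 and 8 at least 2-fold higher. Hoxc12 at 2.22 in WT differed by 0.31 and Hoxd13 at 2.21 by -1.30. This pair was picked for its similar WT values, each gene has 1 value per genotype, and how the difference depends on the WT value was not tested.

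**Figure D3:**
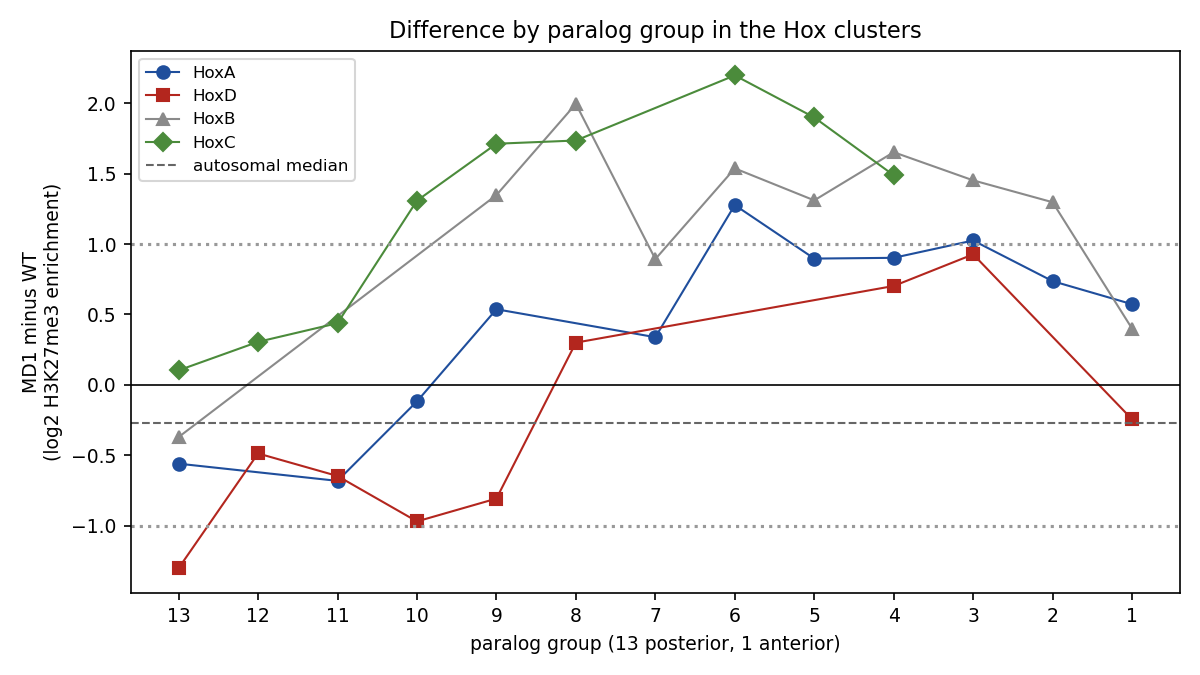
MD1 minus WT log2 H3K27me3 enrichment by paralog group for the 4 Hox clusters, 1 value per gene, with lines joining the genes that each cluster holds. Dotted lines mark 2-fold differences and the dashed line the autosomal median of -0.27. In each cluster the group 13 gene lies below the group 9 gene, as with Hoxd13 at -1.30 and Hoxd9 at -0.81, and at both groups HoxA and HoxD lie below HoxB and HoxC.

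The genes around the clusters were compared in the same way. Evx2, a homeobox gene 8.89 kb beyond Hoxd13, went from 1.41 to 0.59, a difference of -0.82 beside -1.30 at Hoxd13 and -0.49 at Hoxd12. Beyond it, 76.7 kb from Evx2, Lnp stood at -2.18 and -3.20, with little mark in either genotype and a difference of -1.02. Atp5g3, Atf2 and Chn1 lie beyond Lnp, and Mtx2, Hnrnpa3 and Nfe2l2 lie beyond Hoxd1 at the anterior end. These 6 genes and Lnp all had negative differences. Level-matched differences were -0.12 at Lnp, 0.0018 at Atf2, 0.10 at Chn1, -0.13 at Mtx2 and 0.13 at Nfe2l2, against -0.88 at Evx2. They were -0.30 at Atp5g3 (SD 1.23) and -2.44 at Hnrnpa3 (SD 0.78). Whether the lower values ran past Evx2 was not tested. The 7 distal flank genes of HoxA, taken from both ends of that cluster, were also all negative, beside 69.0% of autosomal genes of all levels. Level-matched differences lay within 1 SD at Skap2 (0.15), Tax1bp1 (-0.051), Hibadh (-0.14), Snx10 (-0.21) and Cbx3 (-0.71). They were more negative than 1 SD at Jazf1 (-0.33, SD 0.26) and Hnrnpa2b1 (-1.49, SD 0.77). On the HoxA side Hottip, a noncoding RNA gene 1.89 kb beyond Hoxa13, went from 2.17 to 1.56, a difference of -0.61 close to that of Hoxa13. Evx1, 45.9 kb beyond Hottip, differed in the other direction and went from 2.42 to 3.07. Haglr, a noncoding RNA gene between Hoxd3 and Hoxd1, differed by 0.56 and Hoxd3os1, whose interval overlaps that of Hoxd3, by 0.71. Over the lists of cluster flanks, 3 of 11 genes on the HoxA side and 5 of 10 on the HoxD side were at least 2-fold lower, beside 20.4% of autosomal genes, among them Hnrnpa2b1 (-3.13), Cbx3 (-2.25), Hnrnpa3 (-4.10) and Atp5g3 (-1.91), whose WT values ran from -3.58 to -2.55, and none was at least 2-fold higher.

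Genes for subunits of Polycomb repressive complexes and for partners of Hox proteins are given as lists. Among 21 measured Polycomb subunit genes, 9 passed the 2-fold limit downwards and none upwards, beside 20.4% and 1.61% of autosomal genes, and the median went from -1.75 to -2.32, with a median difference of -0.43 beside -0.27 for autosomal genes. The largest were Ring1 (-2.41), the ubiquitin ligase subunit, Phf1 (-2.38), Rbbp4 (-2.09) and Bmi1 (-1.85). The share of 20.4% is for autosomal genes of all levels. Among the 9 lower genes, level-matched differences lay within 1 SD at Phf1, Suz12 (0.21), Eed (0.21) and Mtf2 (0.019). They were more negative than 1 SD at Ring1, Bmi1 (-1.64), Cbx8 (-1.53), Rbbp4 (-0.53) and Phc3 (-0.42). Whether Polycomb genes as a set differed from autosomal genes of similar level was not tested. Of 9 genes for cofactors of the TALE homeodomain family, 1 was at least 2-fold lower, Pbx2 (-1.19), and Meis1, which binds DNA with Hoxa9, went from -1.35 to -0.43. The 12 fibroblast marker genes stood at medians of -2.79 in WT and -3.52 in MD1. The median of 3 muscle marker genes was 1.76 and 1.98 and that of 4 epithelial ones 1.30 and 1.15. Those of 6 neuron marker genes (0.059 and -0.11) and 3 blood ones (-0.071 and -0.25) lay between. The mark was thus low on fibroblast genes in both genotypes. RNA was not part of the measurement, so marker expression was not checked.

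The size of the differences was set against the scatter between autosomal genes. For each member, the 500 autosomal genes nearest in mean level and of the same length quartile gave a median and an SD. The median was subtracted to give a level-matched difference. The SD is the scatter between genes and does not measure replicate error, which is missing. That SD ran from 0.30 for Hoxd11 to 0.67 for Hoxd8, since 8 of the 10 genes fell in the shortest length quartile and their listed lengths were 2023 to 9658 bp. By this measure Hoxd13 differed by -1.44 (SD 0.51), Hoxd10 by -1.10 (SD 0.53), Hoxd11 by -0.77 (SD 0.30) and Hoxd9 by -0.86 (SD 0.60). The level-matched difference was more negative than 1 such SD at 7 of the 10 genes, against 14.2% of autosomal genes and 16.7% of those within the WT range of the 10. Neighbours in a cluster are counted here as separate genes. It lay within 1 SD at Hoxa10 (-0.20, SD 0.33), Hoxa9 (0.49, SD 0.60) and Hoxd8 (0.28, SD 0.67), so the positive values at Hoxa9 and Hoxd8 were no larger than the scatter between genes.

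**Figure D4:**
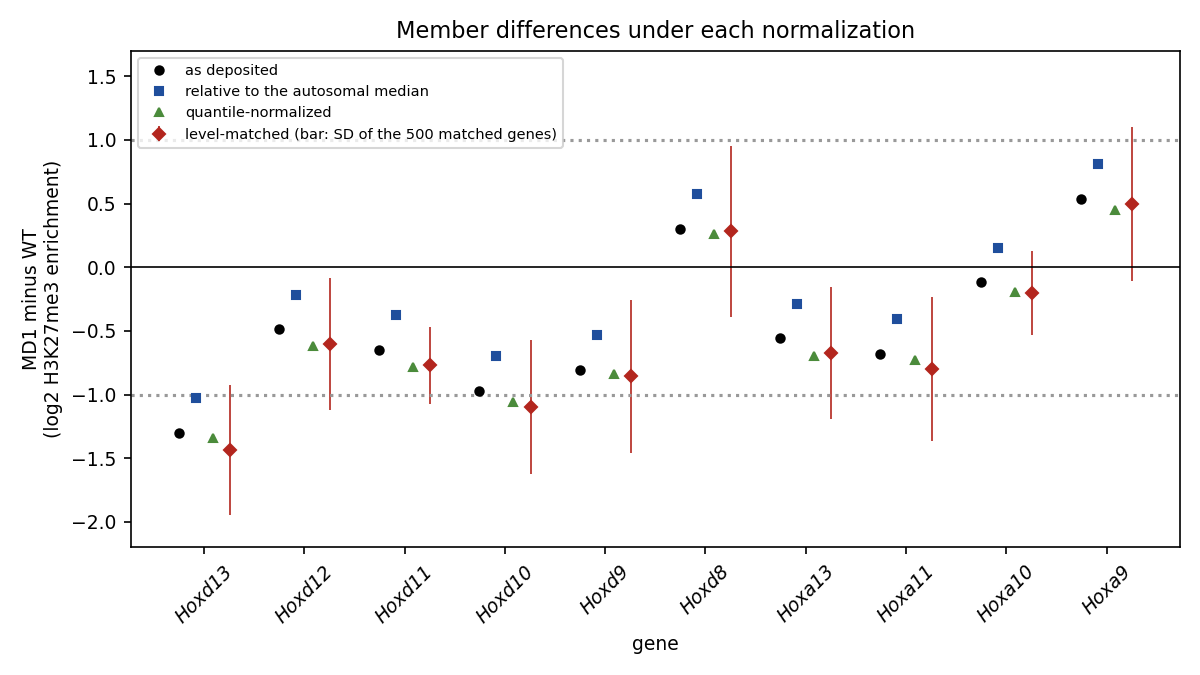
MD1 minus WT log2 H3K27me3 enrichment of the 10 genes as deposited, relative to the autosomal median, quantile-normalized and level-matched, where the bars show 1 SD of the 500 matched autosomal genes. Dotted lines mark 2-fold differences. Hoxd13 is below -1 under each, and Hoxa10 changes sign relative to the autosomal median.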

How the data were processed

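H3K27me3 ChIP-seq of 2 genotypes was analysed, with 1 ChIP and 1 input library each (4 libraries in all). The authors deposited 1 table with 1 log2 enrichment per gene and genotype, per the file headers. Coordinates are in mm9, per the submitters' processing notes. How reads were aligned, counted and filtered, and what the enrichment was divided by, is not given in the sources used here. After subtraction of 1 constant per genotype (0.043 in WT, -0.032 in MD1), 99.98% (WT) and 99.95% (MD1) of values were log2 ratios of whole numbers up to 20000 at a relative tolerance of 1e-12. Only the reduced form of each ratio can be read, so library depth is unknown and no counting interval is given.

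Differences were MD1 minus WT among genes with both values, with a 2-fold limit. No test was run, since no group has replicates. Values came from Python 3.11.15 with numpy 2.4.6 and pandas 2.3.3, and the calculations were tested on simulated data. Promoter stretches are from RefSeq (GRCm38.p6), matched by symbol for all 10 genes. Positions in the table count starts from 0 and are printed from 1. The members, gene lists and settings were chosen with earlier results of these data known. The naming rule took all 10 members, Evx1 and Evx2, and from each other list up to 4 genes with the largest differences. Other genes named were chosen after their values were seen. Other settings were pseudocounts, centring, quantile normalization, level matching, a filter on mean level, other fold limits, means, and leaving out duplicated, overlapping or small-ratio genes.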

Additional observations from a re-analysis of the deposited data

How the results depend on the processing

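No member was at least 2-fold higher under any setting tried. The count of members at least 2-fold lower, 1 as deposited, was 0 at a limit of 3-fold and after adding a pseudocount of 1 to the linear ratio, 2 when quantile-normalized or level-matched (Hoxd13 and Hoxd10) and 5 at 1.5-fold. The median difference of the 4 HoxA genes, -0.34, turned to 0.21 when genes with a ratio denominator under 20 in lowest terms were left out, which leaves 2 of the 4, Hoxa9 and Hoxa10. It was -0.12 without Hoxa11, whose interval overlaps another gene, -0.067 when centred on the autosomal median and -0.21 as a mean. That of the 6 HoxD genes kept its sign under every setting. Leaving out denominators under 20 kept only 2 of the 6, Hoxd13 (-1.30) and Hoxd8 (0.30), with a median of -0.50. This setting does not sort genes by read count, since only lowest terms are known. Hoxd11, for example, was left out for 16 to 3 in WT, with 287 to 80 in MD1. Centring on the autosomal median brought Hoxa10 from -0.12 to 0.15. The other 69 single-gene values tried moved by less than the SD of matched autosomal genes and kept their sign. Many of them could not do otherwise. The filter and the removal of duplicated symbols leave a gene's own difference as it is, and a pseudocount cannot turn its sign. No paired analysis was possible because each genotype has 1 ChIP library. Depth is unknown, and short intervals limit the precision of 8 of the 10 genes.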
